A study of Mus musculus with 2 samples.

Results

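The 10 genes described here, Apob, Mttp, Apoa1, Apoa4, Apoc3, Apoc2, Sar1b, Apobec1, A1cf and Cideb, build, load, edit and export the chylomicron, the particle in which the gut sends dietary fat into lymph. They were chosen by symbol, matched through the stable part of the gene identifier to GENCODE annotation of mouse, and all 10 were found among the 43346 Ensembl genes of the deposited tables. Their RNA was measured in 2 libraries of small intestine from C57BL/6J mice, an inbred strain. Both libraries carry the same labels except for the replicate number: untreated by any stated agent, 8 weeks of age, males and females mixed from the same litters, with the segment of the gut and the health of the animals not given. Each library was made from pooled animals, from polyadenylated and rRNA-depleted RNA longer than 200 nt with added spike-in RNAs, and was read as stranded pairs of 76 nt.

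Chylomicrons are assembled in the endoplasmic reticulum of the absorptive cell, the enterocyte. Microsomal triglyceride transfer protein, encoded by Mttp, moves lipid onto apolipoprotein B, the non-exchangeable scaffold encoded by Apob, and smaller exchangeable apolipoproteins such as those of Apoa1, Apoa4, Apoc2 and Apoc3 join the particle. The cytidine deaminase Apobec1 with its RNA-binding cofactor A1cf edits 1 base of the Apob mRNA so that the enterocyte makes a shortened scaffold, Cideb helps to enlarge the particle, and the GTPase Sar1b starts the coated vesicle that carries it to the Golgi. The liver makes many of the same apolipoproteins, so marker genes of hepatocytes were examined as well.

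The base edited by Apobec1 and A1cf links 3 of the 10 genes, and its site is shown for that reason. In the full-length Apob transcript it lies in exon 26 of 29, a single exon of 7467 bases, at position 8008054 of chromosome 12 (GRCm38, plus strand). It is the first base of codon 2179 of 4505, so 48.3% of the reading frame precedes it. The sequence below is the 45 bases of chr12:8008039-8008083, read 5′ to 3′ from the GENCODE transcript. The first capitals mark the glutamine codon that editing turns into a stop, and the second mark the 11-base mooring sequence bound by the editing complex, which starts 2 bases after the codon.
Apob editing site: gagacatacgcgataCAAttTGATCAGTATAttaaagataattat
Gene and transcript tables carry no base calls, so the share of edited Apob mRNA was not measured here.

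Chylomicron and apolipoprotein transcripts were abundant and unequal. The 10 genes summed to 23277 TPM, a level per length scaled to the same total in each library, in replicate 2 and 7025 TPM in replicate 1, that is 2.33% and 0.702% of all TPM (mean 15151 ± 11492, SD, n = 2). By deposited counts they took 1.81% of replicate 2 and 0.730% of replicate 1. The 4 exchangeable apolipoprotein genes, Apoa1, Apoa4, Apoc3 and Apoc2, held 96.2% of the summed TPM in replicate 2 and 95.1% in replicate 1. The machinery that builds and exports the particle therefore made up the small remainder, and all 10 genes had a mean of at least 1 TPM.

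**Figure D1:**
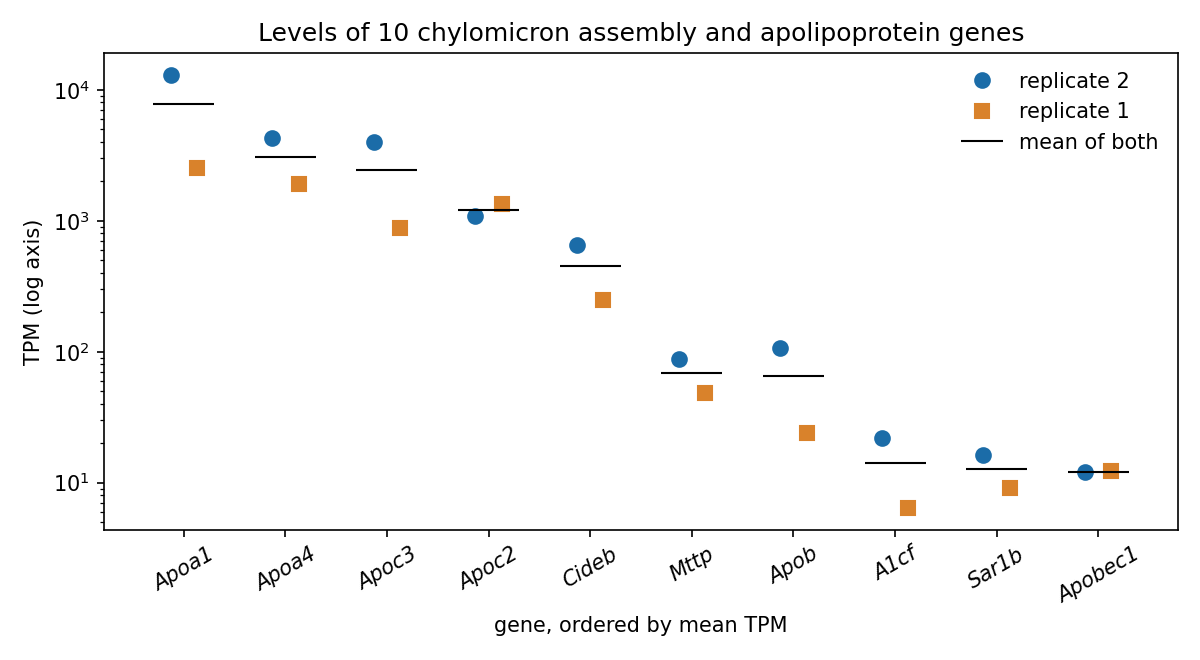
TPM of each gene in each library on a log axis, with replicate 2 as circles, replicate 1 as squares and the mean of both as a line. Apoa1 reaches 13042 TPM in replicate 2 against 2549 TPM in replicate 1, while A1cf, Sar1b and Apobec1 stay under 22 TPM in both libraries.

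Apoa1 (ENSMUSG00000032083.8, chromosome 9, 46228580 to 46230466, GRCm38, plus strand) encodes the main protein of high-density lipoprotein, which intestine and liver both secrete. It held 13042 TPM in replicate 2 against 2549 TPM in replicate 1 (7795 ± 7419, SD, n = 2). It was the 7th most abundant gene by TPM in replicate 2 and the 46th in replicate 1. Genes above it in replicate 1 included pancreas genes such as Ctrb1, at 112 TPM in replicate 2 against 53239 TPM in replicate 1. The Apoa1 share of counts was 0.914% in replicate 2 and 0.227% in replicate 1, with exact 95% Clopper-Pearson intervals of 0.911% to 0.916% and of 0.226% to 0.229%. Apoa1 took 56.0% of the summed TPM of the 10 genes in replicate 2 against 36.3% in replicate 1 (46.2% ± 13.96, SD, n = 2).

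Apoa4 (ENSMUSG00000032080.6, chromosome 9, 46240696 to 46243459, plus strand) encodes an apolipoprotein that the intestine secretes with fat and that is linked to satiety. It was at 4255 TPM in replicate 2 against 1916 TPM in replicate 1 (3086 ± 1654, SD, n = 2). Apoc3 (ENSMUSG00000032081.5, chromosome 9, 46232933 to 46235636, minus strand), whose protein restrains lipoprotein lipase, was at 3990.3 TPM in replicate 2 against 879.6 TPM in replicate 1 (2435 ± 2199.6, SD, n = 2). Apoc2 (ENSMUSG00000002992.12, chromosome 7, 19671579 to 19677941, minus strand), whose protein activates lipoprotein lipase, was the abundant exception, with 1095 TPM in replicate 2 against 1333 TPM in replicate 1 (1214 ± 168, SD, n = 2). The ratio of Apoc3, the inhibitor, to Apoc2, the activator, was 3.64 in replicate 2 and 0.66 in replicate 1, so which of the pair was higher depended on the library.

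Apob (ENSMUSG00000020609.10, chromosome 12, 7977648 to 8016835, plus strand) was far below the exchangeable genes, at 107 TPM in replicate 2 against 23.8 TPM in replicate 1 (65.3 ± 58.7, SD, n = 2). Mttp (ENSMUSG00000028158.10, chromosome 3, 138089854 to 138144968, minus strand) stood at 88.0 TPM in replicate 2 against 48.5 TPM in replicate 1 (68.3 ± 27.98, SD, n = 2). Apob thus exceeded Mttp 1.21-fold in replicate 2 and reached 0.49 of its level in replicate 1. Per length, 122 Apoa1 transcripts were estimated for each Apob transcript in replicate 2 and 107 in replicate 1. The matching numbers for Apoc3 were 37.4 and 37.0, and for Apoa4 39.9 and 80.6. The level of Apoc3 relative to Apob was thus nearly the same in the libraries and that of Apoa4 was not, although each of these ratios moves with the estimated split of Apob over its transcripts, given below.

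Among the genes that enlarge, edit and export the particle, Cideb was the highest, below the 4 exchangeable apolipoprotein genes and above Mttp and Apob in both libraries. Cideb (ENSMUSG00000022219.9, chromosome 14, 55754050 to 55758458, minus strand), a lipid droplet protein, held 649.7 TPM in replicate 2 against 247 TPM in replicate 1 (448 ± 285, SD, n = 2). A1cf (ENSMUSG00000052595.6, chromosome 19, 31868764 to 31948995, plus strand), the editing cofactor, was at 21.9 TPM in replicate 2 against 6.39 TPM in replicate 1 (14.1 ± 10.95, SD, n = 2). Apobec1 (ENSMUSG00000040613.10, chromosome 6, 122577792 to 122602444, minus strand), the deaminase, was at 12.1 TPM in replicate 2 against 12.2 TPM in replicate 1 (12.1 ± 0.057, SD, n = 2), on 789 and 1187 counts. A1cf was thus 1.81 times Apobec1 in replicate 2 and 0.52 of it in replicate 1. Sar1b (ENSMUSG00000020386.5, chromosome 11, 51763687 to 51791925, plus strand) was at 16.3 TPM in replicate 2 against 9.12 TPM in replicate 1 (12.7 ± 5.06, SD, n = 2), on 630 and 448 counts, the fewest of the 10.

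By mean TPM the order was Apoa1, Apoa4, Apoc3, Apoc2, Cideb, Mttp, Apob, A1cf, Sar1b and Apobec1. Only 3 of the 9 neighbouring pairs had values that did not overlap between genes over both libraries, and these were Apoc2 above Cideb, Cideb above Mttp, and Apob above A1cf. Apoa1 lay above Apoa4, and Apoa4 above Apoc3, in each library, although their ranges over both libraries overlapped. The remaining 4 pairs changed order between the libraries (Apoc3 and Apoc2, Mttp and Apob, A1cf and Sar1b, Sar1b and Apobec1), so those neighbours are not told apart.

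With 1 group of 2 replicates, no test between groups exists, and the ratio of replicate 2 over replicate 1 describes their spread. It was taken as log2((TPM + 1) / (TPM + 1)), a scale on which the median of the 12260 genes averaging 1 TPM or more lay 0.66 higher in replicate 2. Ratios below are given relative to that median gene. On this scale 3 of the 10 genes were over 2-fold higher in replicate 2 (Apoa1, Apoc3 and Apob) and none was over 2-fold lower, where 5.03% of all genes were over 2-fold higher and 6.32% over 2-fold lower. The values were 1.69 for Apoa1, 1.52 for Apoc3 and 1.46 for Apob. A1cf at 0.97 stood just inside the 2-fold line, followed by Cideb at 0.73, Apoa4 at 0.49, Mttp at 0.18 and Sar1b at 0.11. Apobec1 at -0.67 and Apoc2 at -0.95 lay below the median gene. The median of the 10 genes was 0.61, and the middle 50% of all genes ran from -0.35 to 0.33.

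**Figure D2:**
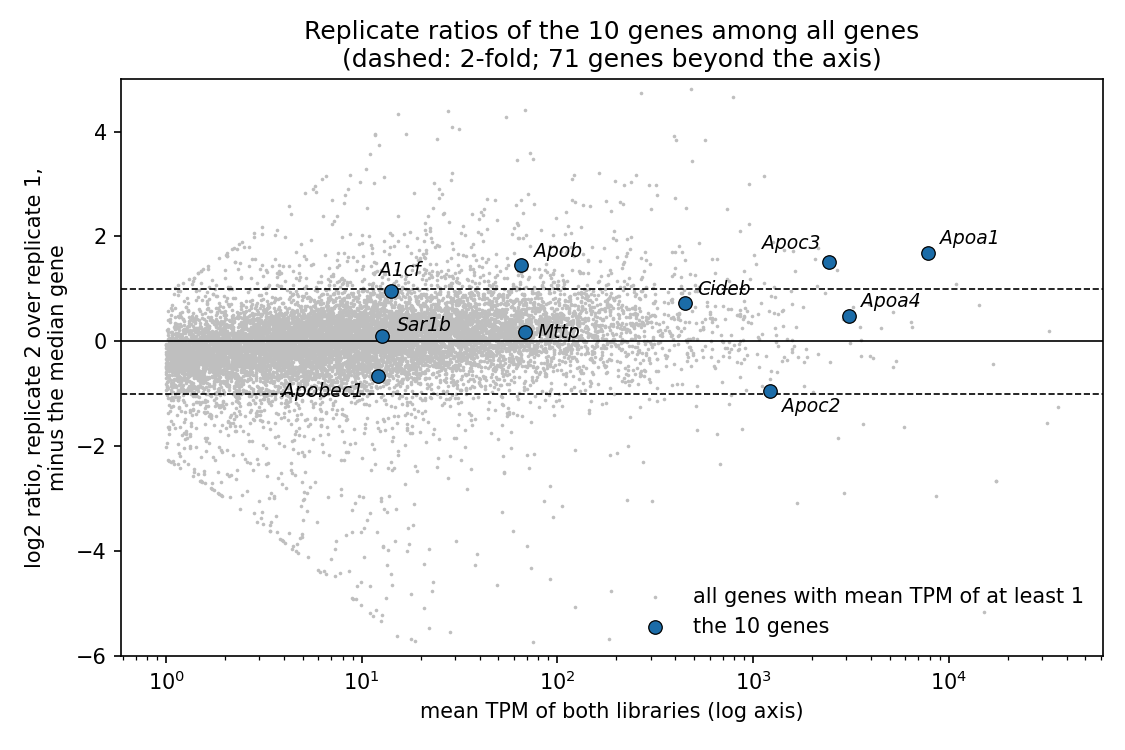
Log2 ratio of replicate 2 over replicate 1 relative to the median gene, against mean TPM on a log axis, for 12260 genes in grey and the 10 genes in blue. Dashed lines mark 2-fold; Apoa1, Apoc3 and Apob lie above the upper line and Apoc2 just above the lower one, and 71 genes lie beyond the vertical axis.

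The deposited credibility intervals of TPM, whose level the files do not state, were apart with replicate 2 higher for 8 of the 10 genes, where 73.5% of all genes were so. They were apart with replicate 2 lower for Apoc2, as for 6.37% of all genes, and they overlapped for Apobec1. Intervals apart are thus the usual case in these libraries and say nothing particular about the 10 genes. The intervals do not always hold the TPM given here. That of Apoa1 in replicate 2 ran from 12873 to 12953, below its TPM of 13042.

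The size of these ratios, and for some genes the direction, depended on what they were scaled to, and marker genes of other tissues differed between the libraries. The 16 genes of the exocrine pancreas list summed to 1803 TPM in replicate 2 against 278793 TPM in replicate 1, led by the digestive enzyme genes Ctrb1 and Cela2a and the colipase gene Clps, and the 10 stomach genes summed to 51.5 and 19753 TPM. Epithelial genes differed the other way: the 8 genes of that list summed to 11239 TPM in replicate 2 against 4153 TPM in replicate 1. They were led by Krt8, Krt19 and Cldn3, and TPM was higher in replicate 2 for all 8. The median gene was itself 0.66 log2 units higher in replicate 2. Relative to it, 3 of the 8 were over 2-fold higher and none lower, with a list median of 0.84 and Krt18 at -0.13. The 12 enterocyte genes summed to 8270.5 TPM in replicate 2 against 5672 TPM in replicate 1. Of the 12, 6 were over 2-fold higher in replicate 2 and 1, Alpi, was over 2-fold lower. Their median was 1.12 relative to the median gene, against 0.61 for the 10 genes of this report. In that list the brush border peptidase gene Anpep was at 2687 TPM in replicate 2 against 512 TPM in replicate 1 and the cadherin gene Cdhr5 at 1011 and 398 TPM, whereas the alkaline phosphatase gene Alpi was at 1663 and 3759 TPM. Over all genes, 5.03% were over 2-fold higher in replicate 2 and 6.32% over 2-fold lower. The distal segment list summed to 2032 TPM in replicate 2 against 460.2 TPM in replicate 1, with 6 of its 10 genes averaging 1 TPM or more over 2-fold higher. The only distal gene over 2-fold lower was Ces1f, at 3.69 TPM in replicate 2 against 32.7 TPM in replicate 1. The proximal list summed to 1446 and 1444 TPM, but 7 of its 12 genes averaging 1 TPM or more were over 2-fold lower in replicate 2, with a median of -2.003 relative to the median gene, among them Ada at 339 and 697 TPM. Lct, the lactase gene, was the only one of that list over 2-fold higher, at 341 TPM in replicate 2 against 55.5 TPM in replicate 1. The filter takes the mean of the same 2 libraries, so some genes passed it through the library where they were high. Among these were Cubn of the distal list, at 24.3 TPM in replicate 2 against 0.20 TPM in replicate 1, and Pdx1 of the proximal list, at 0.12 and 25.3 TPM. The counts and median of these segment lists are thus not independent of the filter. With the pancreas and stomach lists taken out of the TPM total and no centring, the 10 genes summed to 23321 and 10014 TPM. Apoa1 was then 1.85 log2 units higher in replicate 2, Apoc3 1.67 and Apob 1.63. Apobec1 was at -0.48 and Apoc2 at -0.79, and the median of all genes at 0.25. The part of the marker differences in the ratios of the 10 genes was not tested. In whole tissue a difference in the number of enterocytes cannot be told apart from one in RNA per enterocyte.

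Scaled to the summed epithelial list in place of the median gene, Apoa1 was 0.92 log2 units higher in replicate 2, Apoc3 0.74 and Apob 0.68, all inside 2-fold, while Apobec1 at -1.44 and Apoc2 at -1.72 lay past 2-fold in the other direction. On that scale the median of all genes was -0.77, 1.59% of all genes were over 2-fold higher and 32.5% over 2-fold lower, so 2 of the 10 genes lower is no more than the share of all genes. Apoa4 at -0.29, Mttp at -0.59, Sar1b at -0.67 and Cideb at -0.04 took the opposite sign under this scaling. On TPM as deposited, without the median gene taken off, 6 of the 10 genes were over 2-fold higher, where 24.9% of all genes were so, and none was over 2-fold lower, where 3.12% of all genes were so. The order of the genes by ratio, with Apoa1, Apoc3 and Apob at the top and Apoc2 and Apobec1 at the bottom, was the same under each of the 6 scalings plotted, most of which shift all genes alike and so cannot alter it.

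**Figure D3:**
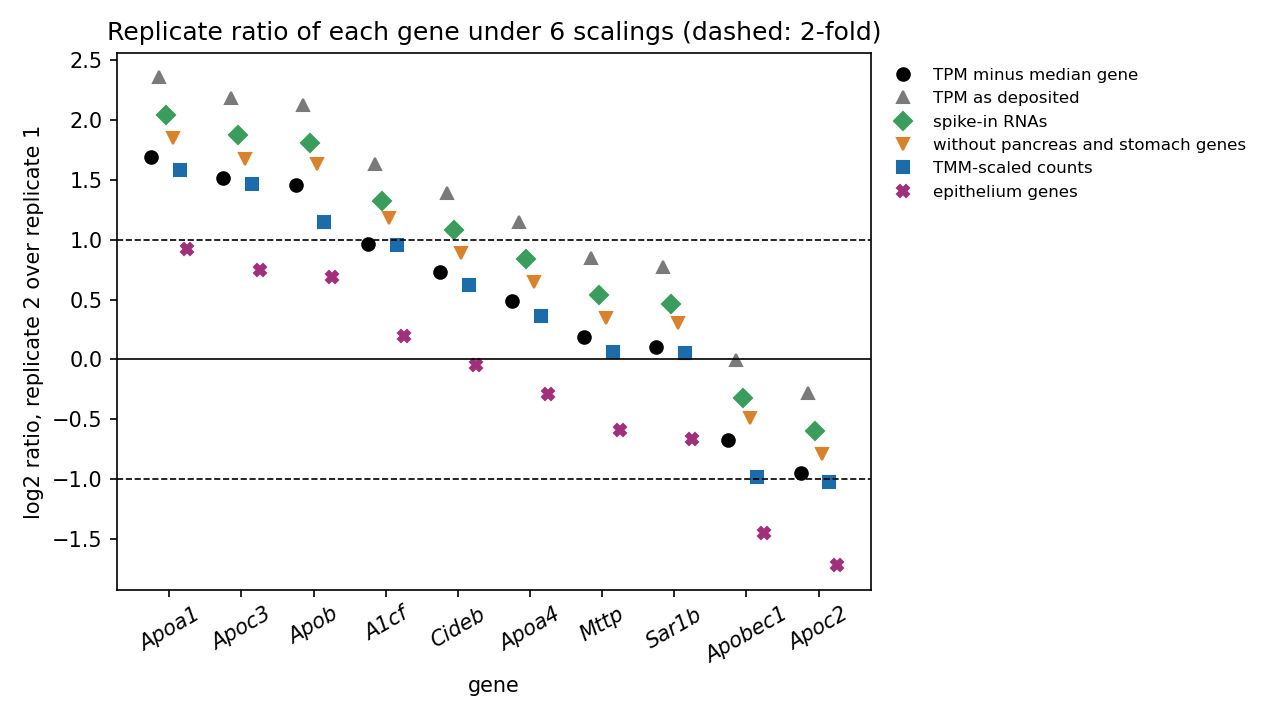
Log2 ratio of replicate 2 over replicate 1 of each gene under 6 scalings, with dashed lines at 2-fold. Apoa1 ranges from 0.92 (epithelium genes) to 2.35 (TPM as deposited) and Apoc2 from -1.72 to -0.28 on the same scalings.

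Markers of hepatocytes were near 0. The 12 genes of that list summed to 8.39 TPM in replicate 2 against 2.64 TPM in replicate 1. Most of the sum in replicate 2 came from the protease inhibitor gene Serpina1b at 6.49 TPM, which has near-identical paralogs. In replicate 1 Serpina1b was at 0.93 TPM and F2 at 0.63 TPM. The fibrinogen genes Fga, Fgb and Fgg had no count in either library, where a count of 0 allows up to 6.55e-06% of counts in replicate 2 and 6.60e-06% in replicate 1 (3 counts, counting error only). The albumin gene Alb had 0 counts in replicate 2 and 22 in replicate 1. The macrophage list, which bears on Apoe, summed to 292 TPM in replicate 2 against 261 TPM in replicate 1, led by C1qc at 88.5 and 66.2 TPM. Lyz2, the next by mean TPM, was at 60 and 85.4 TPM. Of its 7 genes averaging 1 TPM or more, 2 were over 2-fold lower and none higher, against 6.32% and 5.03% of all genes. The list median was -0.37 relative to the median gene.

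Of the 10 genes, 4 lie in apolipoprotein gene clusters. Apoa1, Apoc3 and Apoa4 are close neighbours on chromosome 9, with Apoc3 on the opposite strand between the other genes, and all of them were above the median gene in replicate 2. Apoa5, the remaining apolipoprotein of that group and largely a liver gene, was at 0.27 TPM in replicate 2 against 0.20 TPM in replicate 1. The kinase gene Sik3, 4385 bases from Apoa1, was at 11.8 and 7.37 TPM, a ratio of -0.05 relative to the median gene. In the chromosome 7 cluster, Apoc2 and Apoe, an apolipoprotein made by many cells including macrophages, were the abundant genes, and Apoe was at 482 TPM in replicate 2 against 547 TPM in replicate 1. Their ratios relative to the median gene were -0.95 for Apoc2 and -0.85 for Apoe, while Clptm1 on the other side of Apoc2 had 0.38. Apoc4 and Apoc1, between Apoc2 and Apoe, were at 1.03 and 0.12 TPM in replicate 2, against 0.09 and 0.21 TPM in replicate 1. The annotation also places a gene model, Gm44805, over Apoc2 and Apoc4 on the same strand, and that model has no row in the tables. The opposite-strand neighbours with a row in the tables that overlap 1 of the 10 genes, Trmt10a at Mttp, Gm10680 at Apoa4 and Nop9 at Cideb, were at 5.33 TPM or less in both libraries. Gm43691 at Mttp and Gm47528 at Apoa4 also overlap on the opposite strand and have no row.

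Promoter windows from RefSeq (GRCm38.p6, 250 bases before to 50 after the start) were present for 9 of the 10 genes. In 7 of them the start lay within 200 bases of the 5′ end of the gene's most abundant transcript. In Mttp it lay 12041 bases upstream, near the start of a transcript with 0 TPM in replicate 2 against 0.03 TPM in replicate 1, and in Apoc2 1077 bases upstream. The windows were searched on both strands for 5 motifs: TATAAA, CAAAGNNCA (the core bound by HNF4 factors), the HNF1 motif, AGATAA (bound by zinc finger factors such as Gata4) and TGACGT (the core of a cyclic AMP response element). CAAAGNNCA was present in Apoa4, Apob and Apobec1 and in 6.36% of all 32851 windows. TATAAA was present in Apob, Apobec1 and Cideb and in 13.6% of all windows, and TGACGT in Mttp and in 7.51%. AGATAA and the HNF1 motif were in none of the 9 windows and in 11.2% and 0.00913% of all windows. The windows of Apoa1 and Apoa4, neighbours of unequal ratio, and of Apob, which had a ratio like that of Apoa1, are shown up to the first annotated base of the gene, with matches in capitals. They are chr9:46228380-46228579, chr9:46240594-46240695 and chr12:7977427-7977647, all on the plus strand.
Apoa1: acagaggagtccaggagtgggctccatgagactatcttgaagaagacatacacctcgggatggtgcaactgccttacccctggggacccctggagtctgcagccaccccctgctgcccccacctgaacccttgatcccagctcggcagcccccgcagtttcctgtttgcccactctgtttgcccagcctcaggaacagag
Apoa4: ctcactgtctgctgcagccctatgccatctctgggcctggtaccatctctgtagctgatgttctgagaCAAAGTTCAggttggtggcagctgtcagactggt
Apob: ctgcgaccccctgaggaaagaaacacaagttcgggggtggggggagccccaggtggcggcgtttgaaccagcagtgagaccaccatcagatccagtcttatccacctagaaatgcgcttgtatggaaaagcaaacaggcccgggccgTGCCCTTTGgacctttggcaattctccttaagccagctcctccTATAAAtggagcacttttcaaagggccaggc
A match describes letters in a window, not a bound site.

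The transcript tables split the 10 genes over 28 annotated transcripts. In 8 genes a single transcript held over 98% of the gene's TPM in both libraries, and in Apoa4 and A1cf it was the only one annotated. By the deposited posterior mean the number was 7, since the major transcript of Sar1b then took 97.9% in replicate 2 and 96.9% in replicate 1. Mttp has an alternative first exon upstream, and its transcript ENSMUST00000098580.4 was at 0 TPM in replicate 2 against 0.03 TPM in replicate 1, so nearly all of Mttp came from ENSMUST00000029805.8. Apob and Apobec1 were the genes with a divided estimate.

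The full-length Apob transcript, ENSMUST00000037811.8 (13934 nt), took 48.2% of the gene's TPM in replicate 2 against 58.6% in replicate 1 (53.4% ± 7.3, SD, n = 2). Most of the remainder, 49.5% in replicate 2 and 38.03% in replicate 1, was assigned to ENSMUST00000171239.1, a transcript of 2174 nt. That transcript covers only the 3′ end of the gene, from 8012359 to 8016835, and does not hold the editing site. Every base of it is also exonic in the full-length transcript, and a single splice junction, which removes 790 bases of the last full-length exon within the reading frame, sets it apart. The 30 bases across that junction join 8015082 to 8015873, with the bases after the junction in capitals.
Apob short transcript: gtctgatggtgaaagGTCCCATATGCTTTT
Whether reads crossed it was not examined here, since the tables give estimated counts per transcript.

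By counts the short transcript was minor, at 4070 of 31968 Apob counts (12.7%) in replicate 2 and 892 of 10656 (8.37%) in replicate 1. TPM divides by length, and Apob had an effective length of 7603 nt in replicate 2 against 8809 nt in replicate 1, a factor of 1.16 in the gene's TPM fold. The fold of replicate 2 over replicate 1 was 4.49 by gene TPM and 3 by counts, and for the full-length transcript alone it was 3.70 by TPM and 2.87 by counts. The remaining factor between TPM and count folds, 1.29, was alike in each of the 10 genes and comes from the scaling of TPM. Relative to the median gene the full-length transcript alone stood at 1.15, still over 2-fold, against 1.46 for the gene.

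**Figure D4:**
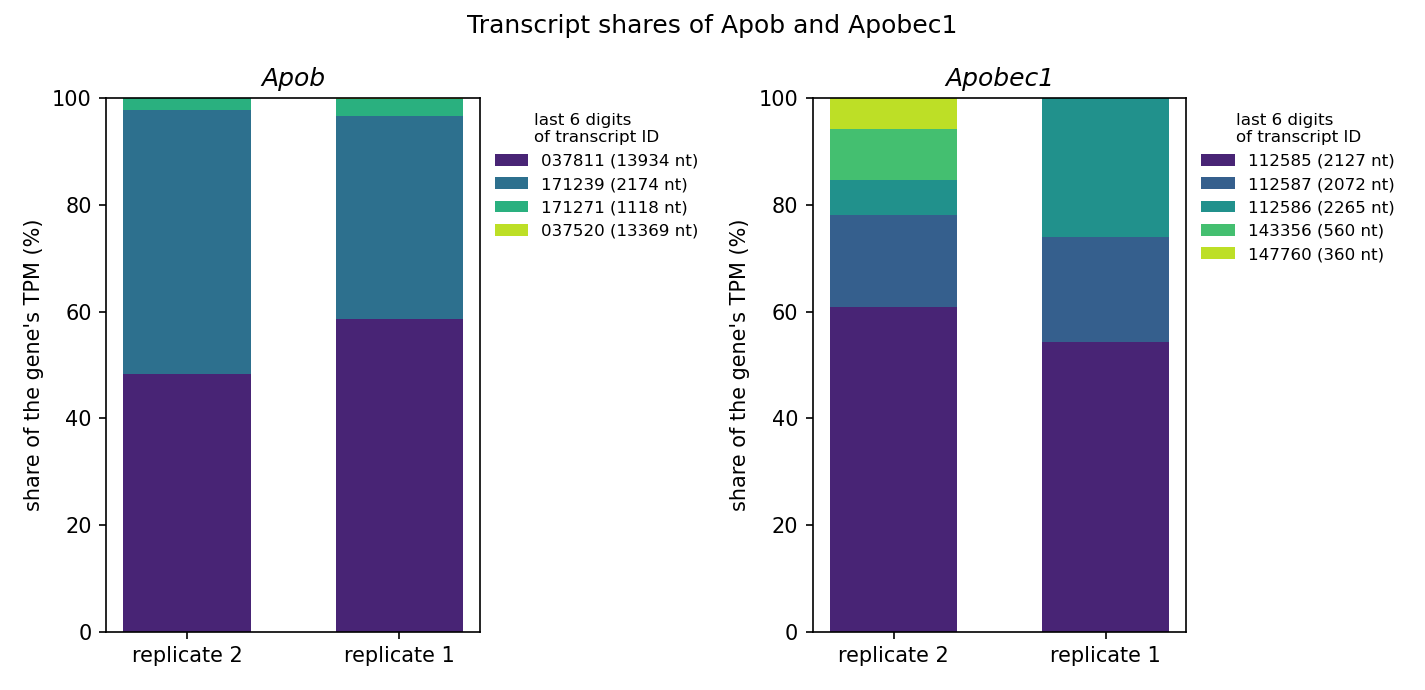
Share of the gene's TPM taken by each annotated transcript of Apob and Apobec1, as stacked bars in percent with replicate 2 left of replicate 1. The full-length Apob transcript takes 48.2% and 58.6%, and the Apobec1 transcript ENSMUST00000112586.3 takes 6.42% and 26.1%.

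Apobec1 is transcribed from more than 1 first exon, and its 12 TPM were divided over 5 transcripts. ENSMUST00000112585.3 took 60.8% in replicate 2 and 54.2% in replicate 1. ENSMUST00000112587.6, which starts at a first exon of its own further downstream, took 17.4% in replicate 2 and 19.7% in replicate 1. ENSMUST00000112586.3 took 6.42% in replicate 2 and 26.1% in replicate 1, a difference resting on 62.7 and 328 estimated counts. The transcript ENSMUST00000143356.1, which the annotation classes as a retained intron, took 9.54% in replicate 2, on 15.6 counts, and 0% in replicate 1. The effective length of Apobec1 was 1656 nt in replicate 2 against 1916 nt in replicate 1. Its fold of replicate 2 over replicate 1 was 0.993 by TPM and 0.665 by counts, a gap made up of a factor of 1.16 from that length and of the 1.29 that all 10 genes share.

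The rest of the pathway was described with lists of genes. In the list of lipidation in the endoplasmic reticulum, 2 of the 15 genes averaging 1 TPM or more were over 2-fold higher in replicate 2 and 1 was over 2-fold lower. Over all genes the shares were 5.03% and 6.32%. The list median relative to the median gene was 0.53, a value that took the opposite sign when scaled to the epithelial list. The higher ones were Fabp2, the intestinal fatty acid binding protein gene, at 176 TPM in replicate 2 against 21.1 TPM in replicate 1, and Soat2, which esterifies cholesterol, at 371 and 75.3 TPM. The lower one, Fitm2, a fat storage gene of 3.62 TPM in replicate 2 against 5.60 TPM in replicate 1, was named after its values were seen. The most abundant were Dgat1, which makes triglyceride, at 1831 TPM in replicate 2 against 638 TPM in replicate 1, Tm6sf2, needed for lipidation of lipoproteins, at 1316 and 488 TPM, and P4hb, the partner subunit of the Mttp protein, at 577 and 354 TPM. The P4hb ratio of 0.04 relative to the median gene was close to the 0.18 of Mttp. Mogat2, which makes diacylglycerol, was at 552 TPM in replicate 2 against 305 TPM in replicate 1. Of the relatives of Cideb, Cidec was at 283 TPM in replicate 2 against 125 TPM in replicate 1, and Cidea was at 0.91 and 0.80 TPM.

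In the vesicle export list, none of the 20 matched genes was over 2-fold higher or lower, where 11.4% of all genes were so. The median was 0.07, against -0.71 when scaled to the epithelial list. Tfg, which organises export sites, was at 583 TPM in replicate 2 against 256 TPM in replicate 1, Sec31a, of the outer vesicle coat, at 564 and 266 TPM, and Surf4, a cargo receptor for lipoproteins, at 519 and 304 TPM. Preb, the exchange factor that loads Sar1 proteins with GTP, was at 253 TPM in replicate 2 against 177 TPM in replicate 1. Sar1a, the paralog of Sar1b, was at 12 TPM in replicate 2 against 8.77 TPM in replicate 1, near Sar1b in both.

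Among editing cofactors and relatives, none of the 8 genes averaging 1 TPM or more was over 2-fold apart, where 11.4% of all genes were so. The median was 0.09, against -0.68 when scaled to the epithelial list. Rbm47, an RNA-binding cofactor of Apobec1, was at 158 TPM in replicate 2 against 80.1 TPM in replicate 1, above A1cf in both. Hnrnpab was at 351 TPM in replicate 2 against 222 TPM in replicate 1, Khsrp at 47.2 and 20.5 TPM, and Dnajb11 at 16.1 and 9.76 TPM. The deaminase relatives Apobec3 and Apobec2 were at 15.4 and 0.25 TPM in replicate 2, against 7.08 and 1.10 TPM in replicate 1.

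Of the 19 transcription factor genes, 4 were over 2-fold higher in replicate 2 and none over 2-fold lower, where 5.03% and 6.32% of all genes were so. The median was 0.38, against -0.39 when scaled to the epithelial list. The higher ones included Cdx1, an intestinal identity factor, at 292 TPM in replicate 2 against 53.1 TPM in replicate 1, and Hnf4g at 45.0 and 12.4 TPM. The others were the sterol sensor Nr1h3 at 104 and 31.8 TPM and Ppargc1a, a coactivator named after its values were seen, at 13.6 and 3.25 TPM. Hnf4a, a regulator of apolipoprotein genes, was at 325 TPM in replicate 2 against 143 TPM in replicate 1, a ratio of 0.51. Creb3l3, which promotes apolipoprotein expression, was at 406 TPM in replicate 2 against 131 TPM in replicate 1, a ratio of 0.96, and Cdx2 was at 282 and 93.1 TPM.

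A list of 9 other apolipoprotein genes was examined, which leaves out the apolipoprotein L family. Of these only Apoe and Apoh had a mean of at least 1 TPM. Apoh, largely a liver gene, was at 2.75 TPM in replicate 2 against 0.02 TPM in replicate 1, on 31 counts and 1 count. Of these 2 genes Apoh was the one over 2-fold higher, where 5.03% of all genes were so. It reached a mean of 1 TPM through replicate 2 alone, so its place over 2-fold is not independent of the filter. Apoa2, an abundant liver apolipoprotein, was at 0.21 TPM in replicate 2 against 0.76 TPM in replicate 1, and Apoc4 is given above.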

How the data were processed

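Per the file headers, each deposited table gives expected counts (estimated fragments per feature), TPM, FPKM, bounds of a credibility interval of TPM as a score without a stated level, and, for transcripts, the percent of the gene's TPM. The text deposited beside the tables names assembly mm10 and annotation M4. Neither aligner nor quantifier is given in the sources used here. Totals were 45822403 expected counts in replicate 2 and 45472946 in replicate 1, and intervals and floors cover counting error only. The mean fragment length was 219 nt in replicate 2 against 237 nt in replicate 1, so the TPM of short transcripts such as those of Apoc3 depends on it. The labels do not say whether the replicates came from separate animals beyond naming separate biosamples of pooled animals. Whether the spread between the replicates is technical or biological was not tested. Markers of pancreas, stomach and gut segment differed between the libraries, as given above.

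Symbols and coordinates came from GENCODE M21 (GRCm38), matching 42462 genes (98.0%); Vamp7 was not matched. Ratios were log2((TPM + 1) / (TPM + 1)), replicate 2 over replicate 1, minus that of the median gene averaging 1 TPM or more, with 2-fold as threshold. Python 3.11.15, numpy 2.4.6, pandas 2.3.3 and scipy 1.17.1 were used, with TMM factors from edgeR 4.0.16 and size factors from DESeq2 1.42.0 (R 4.3.3) on the expected counts after rounding. The ratio step was tested on simulated data with a shared change in total counts and equally many genes changed each way. That setting held no difference like that of the pancreas list, so it does not bear on the choice of scaling. Promoters came from RefSeq (GRCm38.p6) and transcript sequences from GENCODE M21, and the CAAAGNNCA motif was chosen after a stricter one had been tried. The members and lists were chosen with earlier results of these data known. Named genes were drawn from the 10 members, the 4 most abundant of each pathway list, those over 2-fold with mean TPM of at least 10, paralogs and neighbours within 20000 bases. They were also drawn from the leading markers, hepatocyte markers at 0, the 3 nearest genes by level and transcripts of at least 10% of their gene. Not every gene so chosen is named. The plasma cell list, with no gene named, summed to 63910 TPM in replicate 2 against 32053 TPM in replicate 1. The adipocyte list, also with none named, summed to 38.1 and 76.3 TPM.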

Additional observations from a re-analysis of the deposited data

How the results depend on the processing

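No paired analysis was possible because the libraries form 1 group. Of the 12 alternatives for the ratio, 9 left between 2 and 4 of the 10 genes over 2-fold in either direction. The 2 with epithelial scaling were Apoc2 and Apobec1, both lower in replicate 2. The count was 5 with spike-in scaling, 5 with the median gene taken over all genes with a count, and 6 without centring. The median of the 10 genes was 1.27 without centring and -0.16 with epithelial scaling, and ran from 0.49 to 0.96 otherwise. Over all genes the count was 3437 without centring and 4180 with epithelial scaling, and 1293 to 1891 otherwise. Apoa1, Apoc3 and Apob fell inside 2-fold with epithelial scaling alone, and Apoc2 was past 2-fold lower in 7 alternatives, FPKM and both count scalings among them.

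List medians moved with scaling. With epithelial scaling they were -0.59 for other apolipoproteins, -0.24 for lipidation, -0.71 for vesicle export, -0.68 for editing cofactors and -0.39 for transcription factors. Without centring lipidation was at 1.19 and transcription factors at 1.05. Other apolipoproteins, resting on Apoe and Apoh, were at -0.092 with TMM counts, -0.087 with DESeq2 size factors and 1.41 with a pseudocount of 0.1. With the median gene over mean TPM of at least 5, vesicle export was at -0.048 and editing cofactors at -0.025. The causes were not tested. Leaving out a replicate gave summed levels from 7025 to 23277 TPM, Apoa1 shares from 36.3% to 56.0% and full-length Apob shares from 48.2% to 58.6%. The full-length Apob alternative was chosen after seeing the data.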

Other observations

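By their pair of log2(TPM + 1) values over the 2 libraries, the protein-coding genes nearest to Apob were Ifrd1 (107 TPM in replicate 2 against 23.3 TPM in replicate 1), Capn1 (104 and 24.6 TPM) and Slc3a1 (102 and 24.5 TPM), at Euclidean distances of 0.03, 0.06 and 0.08. Those nearest to Mttp were Dbnl, Arpc1a and Mroh1, at distances of 0.03, 0.03 and 0.04. Apoa1 had no gene as close: Actb, at 9786 TPM in replicate 2 against 3775 TPM in replicate 1, was at 0.70, followed by mt-Co3 at 0.89 and Tff3 at 0.94. A likeness over 2 libraries describes levels and carries no more.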
